A study of Homo sapiens with 6 samples.

Results

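A set of 10 genes tied to the circadian clock was followed in HK-2 cells exposed to TGF-β1, with BHLHE40 as the starting point. The set held 10 of the 41497 named entries listed for each library, namely BHLHE40, BHLHE41, CLOCK, NPAS2, PER1, PER2, PER3, CRY1, NR1D1 and NR1D2. Members were taken by gene name, and only the row on a primary chromosome was used. BHLHE40 was picked because its level was more than 4-fold higher after TGF-β1 in these same libraries, so its difference between the groups is given as a description without a test. The other 9 genes were added for their place in the clock, at a time when earlier results from these libraries were known. Their calls are from that same comparison and are likewise descriptive.

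HK-2 is an immortalized line of human proximal tubular epithelial cells. There were 3 control and 3 TGF-β1 libraries of wild-type cells, all collected at 24 h, and poly(A) RNA was sequenced. The labels give no dose, and the methods name one for TGF-β treatment of these cells in general but not with the sequencing. The labels give a culture medium with serum, while the methods describe TGF-β treatment of these cells without serum, and whether the control cells were also without serum is not stated. All samples are from 1 line, and no label says that the 3 libraries of a group came from separate cultures, so the tests measure only the spread between these libraries.

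The clock is a transcriptional feedback loop that runs in most cells of the body, tubular cells of the kidney included. CLOCK or NPAS2 pairs with BMAL1 (ARNTL) and activates genes through E-box motifs. Among these genes are those for the PER and CRY proteins and for the REV-ERB receptors NR1D1 and NR1D2, which then repress the loop. BHLHE40 (DEC1) and BHLHE41 (DEC2) bind the same E-boxes as repressors. Many of these genes normally cycle through the day. With 1 time of collection, a change in mean level and a shift in phase cannot be told apart.

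Total counts ranged from 21938622 to 26906067 per library. All 6 TGF-β response genes examined as a check of the labels were higher after treatment, from a log2 fold change of 1.08 for SKIL to 3.30 for COL1A1. TGF-β1 replicate 1 stood apart. Over the genes tested, the chi-square per degree of freedom between it and the other TGF-β1 libraries was 17.98 and 16.6, against 4.199 between those libraries and 4.21 to 5.86 among controls. Of 11 proximal tubule markers, 6 had at most 10 reads in all 6 libraries together, with LRP2 and SLC22A6 at 0, whereas GGT1 was at 75.7 ± 7.23 CPM in control and 50.6 ± 5.90 CPM after TGF-β1 (SD, n = 3). Of the 4 that could be tested, GGT1 was called lower, and AQP1 (0.397 to 1.73 CPM) and CUBN (0.485 to 0.862 CPM) were called higher. The summed level of 6 fibroblast markers was 59.9 to 69.3 CPM in control and 56.9 to 58.2 CPM after TGF-β1, that of 4 immune markers 92.4 to 102 and 61.0 to 84.7 CPM, and that of 4 endothelial markers 0.859 to 1.60 and at most 0.0384 CPM. The fibroblast sum was mostly LUM, at 61.8 ± 5.12 CPM in control and 51.0 ± 1.05 CPM after TGF-β1 (SD, n = 3). The immune sum was nearly all CD68, and CD3E was at 0. Of the 3 fibroblast markers tested, PDGFRB was called higher, at 5.79 ± 0.429 CPM against 0.551 ± 0.0939 CPM (SD, n = 3), and THY1 and LUM were called lower, with log2 fold changes of -1.72 and -0.28. The part of these markers in the results was not tested.

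Since BHLHE40, CLOCK and their partners act through short DNA motifs, the promoters of the 10 genes were searched for them. RefSeq windows on GRCh38.p14, from 250 bases before to 50 bases after the transcription start, were at hand for all 10 genes, with 13 windows because some genes have more than 1 start. The E-box, CACGTG, was present in windows of 4 members, BHLHE40, BHLHE41, PER1 and NR1D2, and in 7.26% of all 35116 windows. The related E′-box, CACGTT, was present in CLOCK, CRY1, NR1D1 and PER2 and in 5.34% of windows. It shares its first 5 letters with the E-box. The D-box, TTANGTAA, which is bound by DBP, TEF, HLF and NFIL3, was found in NR1D2, PER2 and PER3 and in 2.18% of windows. The ROR element TAGGTCA was in none of the members and in 1.85% of windows. The short SMAD element CAGACA was in BHLHE40, NPAS2 and PER1 and in 16.9% of windows. The percentages are shares of windows, not of genes. Counted in the same way, the E-box was in 4 of 13 member windows and the E′-box in 4. The D-box was in 3 and the SMAD element in 3. Both strands were searched. A match describes letters only, and no binding was measured.

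The stretches that hold an E-box or E′-box are shown for the members that were called higher or lower below, so those of CLOCK and CRY1 are left out. They are written 5′ to 3′ along the gene, with the motif in capitals. In NR1D1 the capitals are the E′-box read from the other strand, and in NR1D2 there are 2 E-boxes.
BHLHE40: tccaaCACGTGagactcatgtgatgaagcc
BHLHE41: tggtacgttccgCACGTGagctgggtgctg
PER1: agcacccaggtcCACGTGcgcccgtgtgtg
PER2: ggcgcgcgcggtCACGTTttccactatgtg
NR1D1: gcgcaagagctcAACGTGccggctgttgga
NR1D2: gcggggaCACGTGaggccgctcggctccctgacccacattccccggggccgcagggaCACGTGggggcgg
On GRCh38.p14 these lie at chr3:4979187-4979216 (plus strand) for BHLHE40, chr12:26125068-26125097 (minus) for BHLHE41, chr17:8152560-8152589 (minus) for PER1, chr2:238288790-238288819 (minus) for PER2, chr17:40100740-40100769 (minus) for NR1D1 and chr3:23945959-23946028 (plus) for NR1D2. The motifs begin 245, 48, 173, 197 and 168 bases before the start in the first 5 genes, and 155 and 105 bases before it in NR1D2. The PER2 stretch lies in an exon of PER2 as the deposited tables list it. Those of BHLHE40 and BHLHE41 lie in an exon of the gene in GENCODE v29 but upstream of the exons in the tables. The PER1 and NR1D2 stretches lie within the span of the gene but in no listed exon.

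BHLHE40 and BHLHE41, which encode closely related repressors, moved in opposite directions. BHLHE40 (gene-BHLHE40, chromosome 3, 4979420 to 4985323) was covered by 1466, 1558 and 1352 reads in the control libraries, and by 7769, 7255 and 5860 in the TGF-β1 libraries. Scaled for library size, this was 65.0, 63.7 and 57.7 CPM in control and 299, 300.3 and 280.1 CPM after TGF-β1. The lowest treated library was thus far above the highest control. The mean went from 62.1 ± 3.93 to 293 ± 11.3 CPM (SD, n = 3), a 4.72-fold difference with a log2 fold change of 2.24 ± 0.06 (SE). Of the 14860 genes tested, 159 had a larger one. The next member, PER2, stayed below the 4-fold limit by which BHLHE40 was picked, at 1.74. In bulk RNA, a change in the number of cells with a transcript and a change in its amount per cell cannot be told apart.

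BHLHE41 (gene-BHLHE41, chromosome 12, 26120030 to 26125037) was at 30.8, 30.6 and 30.3 CPM in control and at 21.0, 20.4 and 20.4 CPM after TGF-β1. The groups did not overlap, and the spread within each was small. Its mean was 30.6 ± 0.252 CPM in control and 20.6 ± 0.350 CPM after TGF-β1. It was called lower, with a log2 fold change of -0.57 ± 0.06. Per unit of transcript length, as TPM, BHLHE40 exceeded BHLHE41 by a ratio of 2.07 to 2.30 in control libraries and of 15.0 to 16.02 in TGF-β1 libraries. The antisense gene BHLHE40-AS1 had 2 to 3 reads per control library and 6 to 7 per TGF-β1 library and was below the count filter. BHLHE41 shares 5.40% of its exon bases with SSPN on the other strand, which had at most 12 reads in a library.

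**Figure D1:**
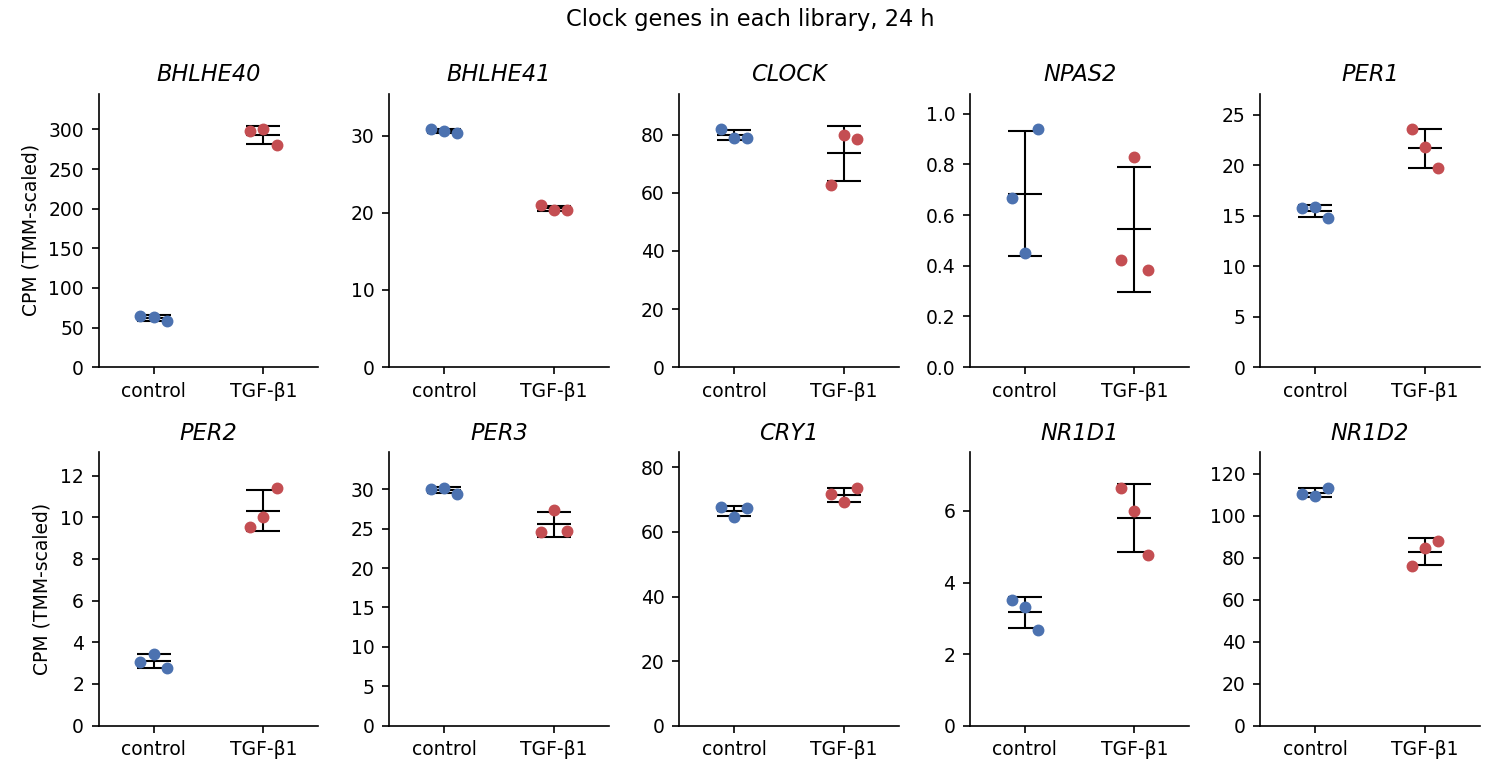
CPM of the 10 clock genes in each of 3 control (blue) and 3 TGF-β1 (red) libraries, one panel per gene with its own axis from 0; bars give the mean ± SD. BHLHE40 lies between 57.7 and 65.0 CPM in control and between 280.1 and 300.3 CPM after TGF-β1, while CLOCK and NPAS2 overlap between the groups.

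The activating arm was examined next. CLOCK, which encodes the bHLH-PAS activator, did not pass the test, whereas its partner ARNTL did. CLOCK (gene-CLOCK, chromosome 4, 55427903 to 55547138) was at 81.9, 79.0 and 78.8 CPM in control and at 62.6, 79.8 and 78.3 CPM after TGF-β1. Only TGF-β1 replicate 1 was low, and the other treated libraries were within 1 CPM of the controls or among them. The log2 fold change was -0.12 ± 0.09, and -0.03 without TGF-β1 replicate 1. Of the CLOCK exon bases, 8.17% are shared with TMEM165 on the other strand, whose log2 fold change was 0.30. NPAS2 (gene-NPAS2, chromosome 2, 100820139 to 100996829), which can stand in for CLOCK, was near the limit of detection with 8 to 22 reads per library. Its mean was 0.685 ± 0.245 CPM in control and 0.544 ± 0.246 CPM after TGF-β1, and its log2 fold change of -0.32 ± 0.39 did not pass.

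ARNTL (gene-ARNTL, chromosome 11, 13276552 to 13387268), the gene for BMAL1, was one of the genes outside the set of 10. It rose from 15.97, 15.3 and 18.1 CPM to 39.7, 39.4 and 42.2 CPM. Its log2 fold change was 1.29 ± 0.08 (edgeR adjusted p 2.0e-07), and all 3 treated libraries were above all controls. ARNTL2, the gene for the related BMAL2, had a mean of 109.7 ± 11.0 CPM in control and 97.3 ± 5.46 CPM after TGF-β1, a log2 fold change of -0.17 ± 0.08 that did not pass (edgeR adjusted p 0.0873). Per unit of length ARNTL2 exceeded ARNTL by a ratio of 3.43 to 3.68 in control and of 1.23 to 1.37 after TGF-β1.

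The PER genes encode repressors that bind CLOCK and BMAL1, and they did not move as 1 group. PER2 (gene-PER2, chromosome 2, 238244038 to 238290102) was read 69, 84 and 65 times in the control libraries and 248, 242 and 239 times in the treated ones, or 3.06, 3.44 and 2.77 against 9.53, 10.02 and 11.4 CPM. The treated libraries were all above the controls. Its log2 fold change of 1.74 ± 0.13 was the second largest of the 10 genes, and it was called higher. PER1 (gene-PER1, chromosome 17, 8140470 to 8156360), an early-response member of the family, was at 15.7, 15.9 and 14.8 CPM in control and at 23.6, 21.8 and 19.7 CPM after TGF-β1. It was called higher at 0.49 ± 0.08. PER3 (gene-PER3, chromosome 1, 7784285 to 7845181) went the other way, from 30.03, 30.2 and 29.4 CPM to 24.6, 27.4 and 24.7 CPM. It was called lower at -0.23 ± 0.07, and the call was lost without control replicate 2 (-0.22) or TGF-β1 replicate 3 (-0.21).

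PER2 came closer in level to the other PER genes. As TPM, PER1 exceeded PER2 by a ratio of 5.72 to 6.61 in control libraries and of 2.13 to 3.06 in TGF-β1 libraries. Likewise, PER3 exceeded PER2 by a ratio of 7.07 to 8.54 in control libraries and of 1.74 to 2.20 in TGF-β1 libraries. PER1 was below PER3 in every control library, at a ratio of 0.774 to 0.809, and above it in every TGF-β1 library, at 1.23 to 1.47. The summed TPM of PER1, PER2 and PER3 was 22.4 to 23.3 in control and 25.5 to 27.3 after TGF-β1.

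CRY1 (gene-CRY1, chromosome 12, 106991364 to 107093872), a cryptochrome and partner of the PER proteins, was at 67.6, 64.8 and 67.3 CPM in control and at 71.6, 69.4 and 73.7 CPM after TGF-β1. The groups did not overlap, but the log2 fold change of 0.10 ± 0.05 did not pass, and it was -0.0038 with scaling by total counts only. Of the other repressors outside the set, CRY2 was at 0.06 ± 0.11 and CIART, which encodes a repressor of CLOCK and BMAL1, at -0.42 ± 0.16. Neither passed, with edgeR adjusted p values of 0.668 and 0.0545. Without TGF-β1 replicate 1, CIART was at -0.59 and passed (edgeR adjusted p 0.00712).

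The REV-ERB receptors also diverged. They repress ARNTL and other genes through ROR elements. NR1D1 (gene-NR1D1, chromosome 17, 40092793 to 40100589), which encodes REV-ERBα, was read 79, 81 and 63 times in the control libraries and 173, 145 and 100 times in the treated ones. This was 3.50, 3.31 and 2.69 CPM against 6.65, 6.003 and 4.78 CPM, so the groups were apart although the treated libraries were uneven. It was called higher at 0.88 ± 0.16, and at 0.76 without TGF-β1 replicate 1. The 3′ end of NR1D1 overlaps THRA on the other strand, and 17.98% of its exon bases are shared. THRA itself had a log2 fold change of 0.20. Whether reads were counted by strand is not stated, so reads in the shared bases cannot be told apart. NR1D2 (gene-NR1D2, chromosome 3, 23945286 to 23980618), which encodes REV-ERBβ, was at 110.3, 109 and 113 CPM in control and at 75.8, 84.7 and 88.1 CPM after TGF-β1. It was called lower at -0.42 ± 0.06. NR1D2 remained the more abundant of the pair, with a TPM ratio to NR1D1 of 15.1 to 20.3 in control and of 5.48 to 8.86 after TGF-β1.

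RORA, RORB and the corepressor of the REV-ERBs are outside the set. RORA, which activates through ROR elements, fell from 7.13 ± 0.436 to 4.35 ± 0.325 CPM, and the log2 fold change was -0.71 ± 0.12 (edgeR adjusted p 7.3e-04). RORB had 4 reads in all 6 libraries together. NCOR1, a subunit of the corepressor, fell by 0.30 ± 0.07 on the log2 scale (edgeR adjusted p 0.00669). Its partner HDAC3 did not pass.

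Counting all members, 7 of 10 were called at an adjusted p under 0.05, 4 higher and 3 lower. BHLHE40, PER2, NR1D1 and PER1 were the higher ones, and BHLHE41, NR1D2 and PER3 the lower ones. Among all genes tested 44.3% were called, 22.2% higher and 22.1% lower. Libraries of the groups did not overlap for 8 members, against 55.6% of all genes. BHLHE40 and PER2 were called at least 2-fold, as were 9.06% of all genes. BHLHE40 was chosen on this comparison, so its place in these counts carries no weight, and nothing is read from them. The median log2 fold change was -0.0076 over the 10 members and 0.0063 over all genes. All 10 passed the filter on low counts.

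The balance of directions over all genes depended on scaling. In the main analysis 3294 genes were higher and 3288 lower, and with total counts only 2130 were higher and 4592 lower, with a median of all genes at -0.10. Under that scaling CLOCK was also called lower, at -0.23, and the 7 calls of the other members stood.

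**Figure D2:**
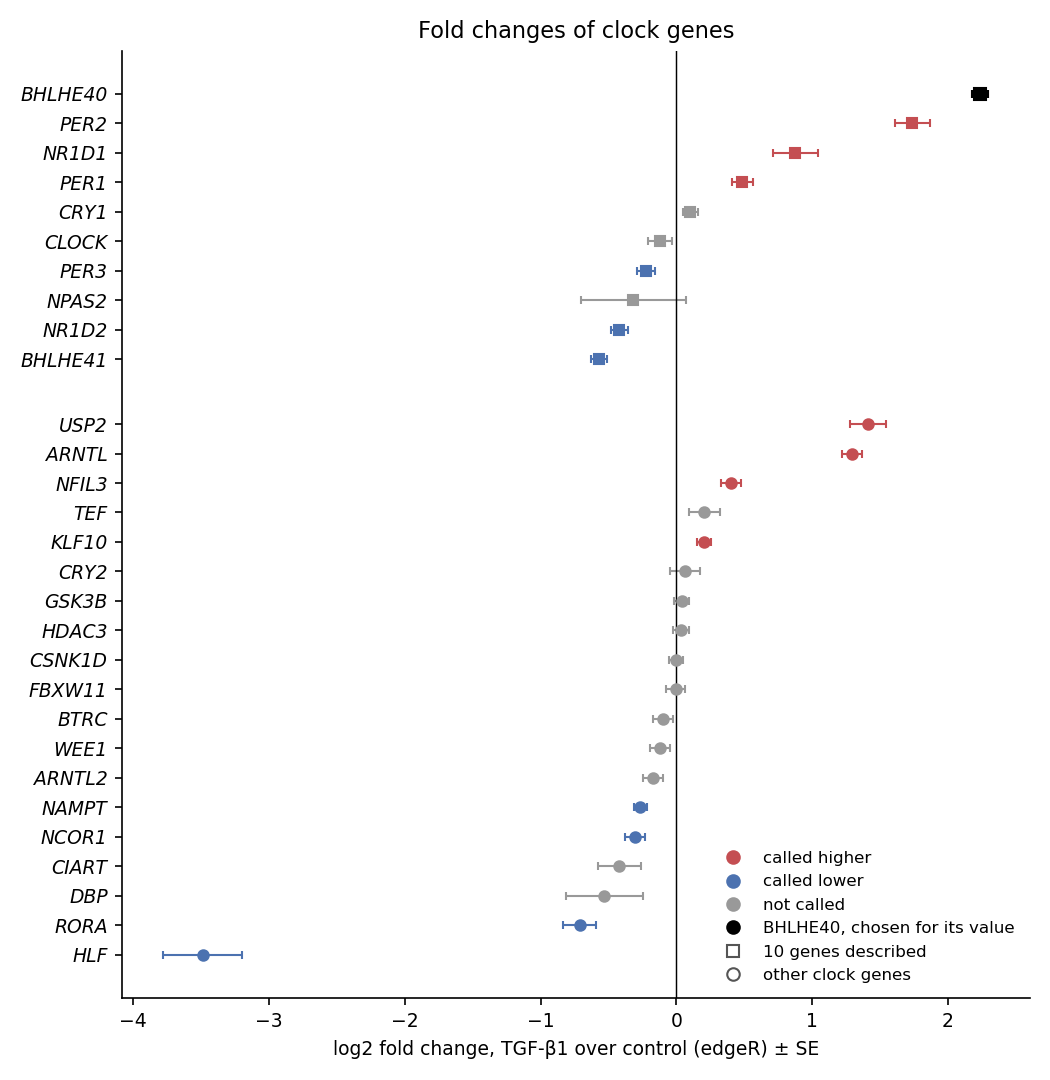
Log2 fold change of TGF-β1 over control (edgeR) with its standard error for the 10 genes (squares) and the other clock genes reported here that passed the count filter (circles); red was called higher, blue lower and grey not called, and BHLHE40 is black because it was chosen for this value. BHLHE40 is at 2.24 and PER2 at 1.74, and HLF is farthest to the left at -3.49.

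A wider list of 23 clock genes, drawn up from their known roles, was then compared. The count filter kept 20 of them, and 9 were called, 5 as higher and 4 as lower, or 45.0% against 44.3% of all genes. With total counts only, 4 were called higher and 8 lower, as ARNTL2, BTRC, CIART and WEE1 were then also called lower and KLF10 was not called (0.097). In the main analysis the 11 genes not called ranged from -0.53 to 0.21. The median log2 fold change was -0.0037. The largest value belonged to HLF, a PAR bZIP factor that activates output genes through D-boxes. HLF was at 3.28, 3.68 and 3.50 CPM in control and at 0.461, 0.290 and 0.143 CPM after TGF-β1, from 246 reads in all to 22. It fell by 3.49 ± 0.29 on the log2 scale (edgeR adjusted p 3.4e-06), or 11.2-fold. The other PAR bZIP factors, TEF and DBP, did not pass, with DBP at -0.53 ± 0.29 from 11 to 33 reads per library. DBP shares 12.4% of its exon bases with SPHK2 on the other strand, which rose by 0.43 (edgeR adjusted p 0.00578). NFIL3, which represses through the same D-boxes, rose by 0.40 ± 0.07 (edgeR adjusted p 0.00127), from 29.7 ± 2.34 to 39.3 ± 2.29 CPM.

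Among genes for the turnover of clock proteins, USP2 rose. USP2, a deubiquitinase with clock-controlled expression, was at 2.49 ± 0.198 CPM in control and 6.64 ± 0.384 CPM after TGF-β1. Its log2 fold change was 1.41 ± 0.13 (edgeR adjusted p 8.7e-06). The kinase genes CSNK1D and GSK3B and the ligase genes BTRC and FBXW11 did not pass. CSNK1E had 1 to 7 reads per library. As 87.2% of its exon bases are shared with the readthrough gene TPTEP2-CSNK1E, its level is uncertain. Of the output genes, NAMPT, which encodes an enzyme of NAD synthesis, fell by 0.26 ± 0.05 (edgeR adjusted p 0.00135) and KLF10 rose by 0.20 ± 0.05 (edgeR adjusted p 0.00929), whereas WEE1 did not pass.

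To set the 10 genes side by side, levels were compared as TPM, which corrects for length but not for the composition of the library. The length is that of all exon bases listed for a gene, not of the transcript expressed. Ratios and order between genes depend on it. In control the order was NR1D2 at 67.4 ± 2.41, CRY1 at 63.2 ± 1.88, BHLHE40 at 60.1 ± 2.79, BHLHE41 at 27.2 ± 0.272 and CLOCK at 21.9 ± 0.251 TPM (SD, n = 3). These were followed by PER3 at 11.8 ± 0.129, PER1 at 9.42 ± 0.231, NR1D1 at 3.999 ± 0.473, PER2 at 1.52 ± 0.152 and NPAS2 at 0.263 ± 0.0978 TPM. Only CRY1 and BHLHE40 overlapped in range with their neighbor in this order. After TGF-β1, BHLHE40 came first at 261 ± 11.1 TPM, followed by CRY1 at 62.6 ± 2.28 and NR1D2 at 46.5 ± 4.68. CLOCK at 18.6 ± 2.89 and BHLHE41 at 16.8 ± 0.218 TPM overlapped in range. PER1 at 12.1 ± 0.872, PER3 at 9.32 ± 0.780, NR1D1 at 6.76 ± 0.998, PER2 at 4.68 ± 0.524 and NPAS2 at 0.193 ± 0.0915 TPM followed.

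**Figure D3:**
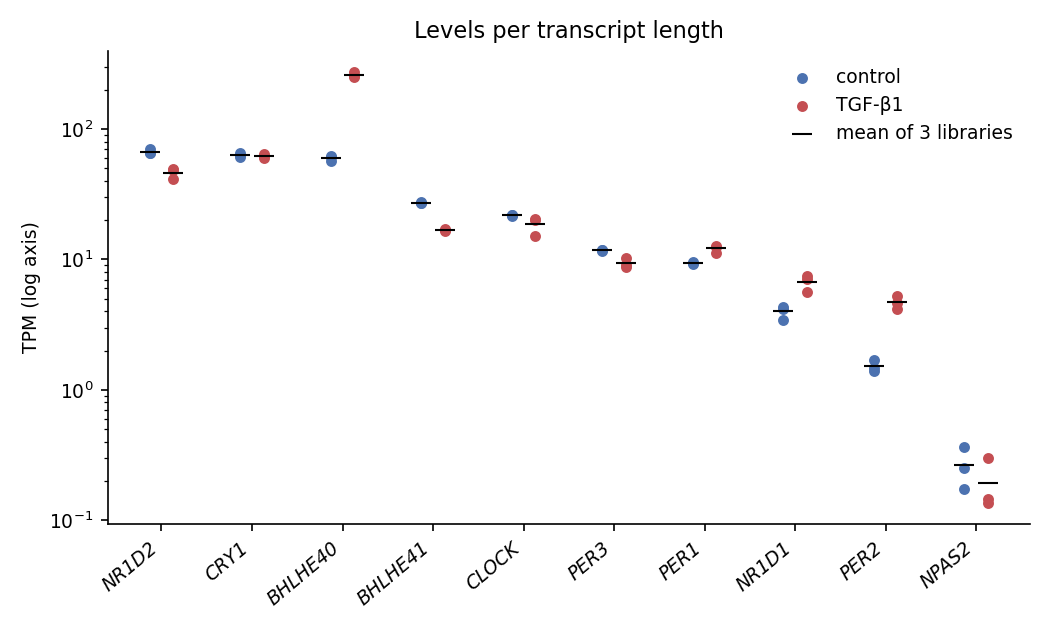
Level of each of the 10 genes per unit of listed length, as TPM on a log axis. Libraries are 3 control (blue) and 3 TGF-β1 (red), with the mean as a black line and genes in the order of their control means. BHLHE40 goes from 60.1 to 261 TPM and to the first place, whereas CRY1 is at 63.2 and 62.6 TPM.

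BHLHE40 is also known as a gene induced by hypoxia through HIF, so a list of 19 HIF target genes was set beside it. Whether HIF had a part in the level of BHLHE40 was not tested. Most of the called genes on that list were lower after TGF-β1. Among the 18 kept by the count filter there were 12 calls, of which 3 were higher and 9 lower, while 44.3% of all genes were called, 22.2% higher and 22.1% lower. Without TGF-β1 replicate 1 there were 14 calls, 5 higher and 9 lower. With entries of a name summed there were 13, 4 higher and 9 lower, and with total counts only 15, 3 higher and 12 lower. The median log2 fold change was -0.30 against 0.0063 for all genes. ADM, the adrenomedullin gene, fell by 2.08 ± 0.08 on the log2 scale (edgeR adjusted p 8.4e-09), from 28.8 ± 2.17 to 6.82 ± 0.0677 CPM. CA9, the gene for carbonic anhydrase IX, fell by 1.39 ± 0.17 (edgeR adjusted p 6.6e-05). VEGFA, which encodes the endothelial growth factor, rose by 1.36 ± 0.05 (edgeR adjusted p 7.3e-09), from 115 ± 0.401 to 295 ± 10.5 CPM. SLC2A1 and P4HA1 were also called higher, at 0.45 ± 0.07 and 0.32 ± 0.05 (edgeR adjusted p 6.7e-04 and 2.8e-04). LDHA had the next highest value after VEGFA, at 0.52 ± 0.21, and did not pass (edgeR adjusted p 0.0710). The name LDHA has a second entry off the primary chromosomes, and its level of 1.52 CPM in control is uncertain.

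**Figure D4:**
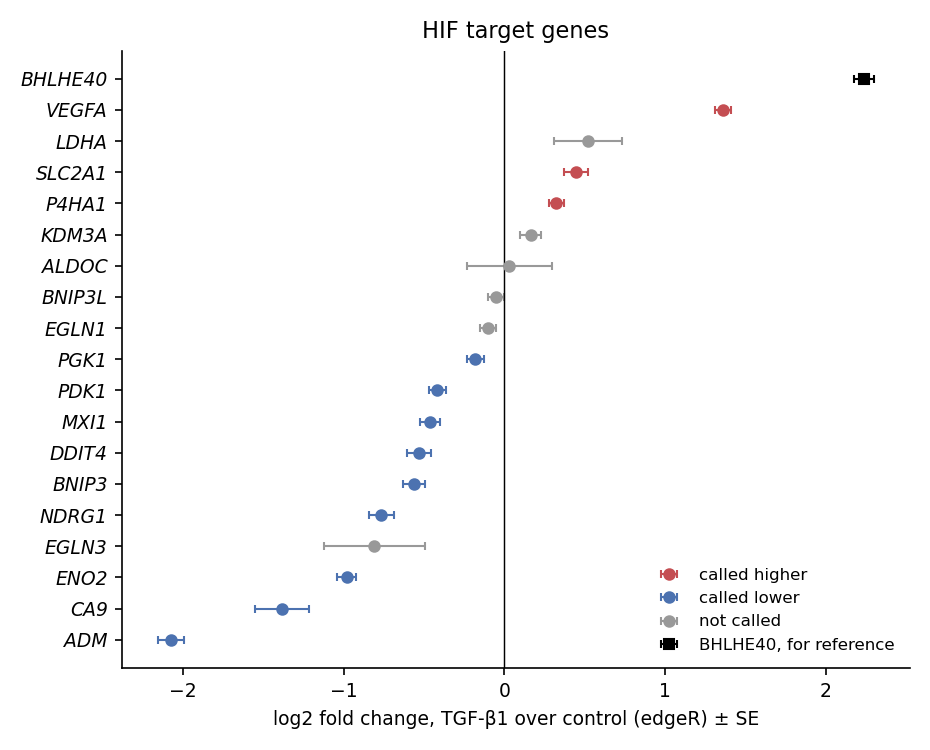
Log2 fold change of TGF-β1 over control (edgeR) with its standard error for 18 HIF target genes that passed the count filter, with BHLHE40 in black for reference. Of the 18 genes, 9 were called lower (blue) and 3 higher (red) with all 6 libraries, from ADM at -2.08 to VEGFA at 1.36.

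Finally, genes with a profile most like that of BHLHE40 were sought. Profiles were log2 CPM minus the control mean over the 6 libraries, and likeness was the Euclidean distance among 10430 genes that had 1 entry and averaged 5 CPM or more. The 5 nearest genes were CD83, LMCD1, PPP1R14C, TFPI2 and ADAM19, at distances of 0.167, 0.179, 0.181, 0.187 and 0.218, against a median of 3.83 over all genes. CD83, which encodes an immunoglobulin-like surface protein, went from 20.9 ± 0.649 to 101 ± 3.70 CPM. TFPI2, which encodes a secreted protease inhibitor, went from 147 ± 6.47 to 658 ± 33.4 CPM. ADAM19, which encodes a metalloprotease, went from 53.5 ± 1.66 to 246 ± 13.5 CPM. With profiles set against the control mean, the distance mostly reflects the log2 fold change, which was 2.16 to 2.28 in these 5 genes. A gene that changed little lies far by this measure, so the median says nothing about a shared pattern. These genes were selected for their likeness, so no test is given.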

How the data were processed

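Poly(A) RNA of 3 control and 3 TGF-β1 HK-2 libraries was sequenced as paired-end reads, which the authors filtered for adapters and poor quality. The submitters' processing notes name hg38 and featureCounts 2.0.1. The aligner, annotation release and strand setting are not given in the sources used here. The deposited tables hold raw counts per gene together with TPM and FPKM values made by the authors. The deposited TPM values were checked by recomputing them from counts and lengths, and differed by at most 3.57e-06. FPKM was not used. In each table, 7 records broken over several lines were rejoined.

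Counts of 41497 named entries were the input to the filter and the test. Entries without a name, 0.396% to 0.464% of counts, were left out. None lay within 50 kb of a member. Genes were filtered with filterByExpr (minimum count 10), scaled by TMM and compared with the edgeR 4.0.16 quasi-likelihood F test (two-sided, robust), with Benjamini-Hochberg adjustment over 14860 genes. Genes were called at an adjusted p under 0.05. CPM used TMM-scaled library sizes. The SE is the log2 fold change divided by the square root of F. Likeness profiles used a prior count of 2.

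The named genes were the 10 members, and the called genes of the wider clock list with examples of the others. Of the hypoxia list they were the 2 highest, the 2 lowest and the others called higher. Genes overlapping a member and the 5 genes most like BHLHE40 were also named. Of the wider list, 2 genes are counted but not reported by name here. Members and lists were chosen with earlier results of these data known.

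Alternatives were DESeq2 1.42.0, limma-voom (limma 3.58.1), RLE factors, total counts only, no count filter, a mean of at least 50 counts, entries of a name summed, a replicate block, and each library left out. R 4.3.3, Python 3.11.15 and pandas 2.3.3 were used. Group sizes of 3 limit the precision, and PCR copies could not be told from separate molecules.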

Additional observations from a re-analysis of the deposited data

How the results depend on the processing

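The number of called members, BHLHE40 included, was 7 in the main analysis and 7 or 8 in the 8 alternatives. It was 6 to 7 when 1 library was left out. The corresponding numbers were 9, 9 to 12 and 9 to 10 for the wider clock list, 12, 12 to 15 and 11 to 14 for the hypoxia list, and 6582, 5747 to 6958 and 5333 to 7196 for all genes. The log2 fold change of BHLHE40 ranged from 2.13 to 2.27, that of PER2 from 1.63 to 1.82 and that of NR1D1 from 0.76 to 0.99. Of 139 values of members, 135 kept their direction and side of the threshold, 2 lost the call (PER3 without 1 library), 1 gained it (CLOCK with total counts only) and 1 changed sign. Changes of sign concerned genes near 0 that were never called. With total counts only they were CRY1 (-0.0038), CRY2 (-0.044), GSK3B (-0.070) and HDAC3 (-0.076). Without a filter they were CSNK1D (0.0079) and FBXW11 (0.0041), and with entries summed CSNK1D (0.00070). When 1 library was left out, CSNK1D ranged from -0.042 to 0.019, FBXW11 from -0.043 to 0.043, CRY2 from -0.0013 to 0.10, GSK3B from -0.0076 to 0.072 and HDAC3 from -0.028 to 0.068. The cause was not tested. CIART passed the threshold in 5 of the 8 alternatives and without either of 2 libraries (control replicate 3 and TGF-β1 replicate 1), at -0.35 to -0.59 over the 6 libraries left out. A mean of at least 50 counts removed NPAS2, DBP and HLF.

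The replicate numbers of the titles showed no clear pairing of the libraries. The correlation of deviations across genes was 0.111, -0.012 and 0.076 for the same number in both groups, and not every library correlated best with its own number. The block moved the calls of ARNTL2 (-0.17) and CIART (-0.43) past the threshold and changed no member's call. With the replicate block 7 members, 11 genes of the wider list, 13 of the hypoxia list and 6790 genes overall were called. At 8 to 22 reads per library, NPAS2 could not be assessed closely. Leaving out single libraries moved its log2 fold change between -0.75 and -0.020.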
